A study of Mus musculus with 6 samples.

Results

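The genes described here are 9 genes of neural cell adhesion: Chl1 and its relatives L1cam, Nrcam and Nfasc of the L1 family, the secreted ligands Lgi1, Lgi2 and Lgi4, and the ADAM receptors Adam22 and Adam23. All 9 were found by gene symbol among the 18477 genes of the deposited table, and all 9 passed the filter on low counts that left 14579 genes. Chl1 and Lgi2 were chosen on the comparison between the groups described here, in which both are called lower, so their differences are a description and carry no test. The other 7 were added as family members, ligands or receptors of these genes, with earlier results of these data known. To relate *Bacteroides vulgatus* to colitis, the study sequenced 3 colon libraries from mice given dextran sulfate sodium (DSS), which injures the colon epithelium, and 3 from mice given DSS and the bacterium (DSS+BV). The mice were male C57BL/6 mice of 6 to 8 weeks. Both groups received 2% DSS in the drinking water for the last 7 of 14 days, and a gavage on each of the 14 days, of PBS with DSS and of the bacterium in PBS with DSS+BV. The sources used here do not say whether a library is 1 animal or a pool, and p-values measure the spread between libraries. Mice without DSS were not analysed here.

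L1 family proteins are immunoglobulin-fold adhesion molecules of axons and glial cells, which bind one another or other surface proteins outside the cell and ankyrins inside it. LGI proteins are secreted and bind ADAM proteins that lack protease activity, a pairing known from synapses and from the myelination of peripheral nerve. In the gut these genes are usually discussed with the enteric nervous system, and L1cam is also known from epithelial cells.

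Library totals lay between 15293276 and 17254343 expected counts. Over all tested genes, DSS 1, DSS 3 and DSS+BV 1 clustered together and apart from DSS 2, DSS+BV 2 and DSS+BV 3, so clustering did not follow the treatment. Values of single libraries follow the order of the replicate numbers, 1 to 3. Levels are given as CPM, expected counts scaled to a common library total with TMM factors. Log2 fold changes set DSS+BV over DSS and come from edgeR's quasi-likelihood test, and a gene was called at an adjusted p-value under 0.05 with an absolute log2 fold change over 1. In bulk colon, fewer cells of a type and less RNA per cell cannot be told apart.

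The stretches below lie upstream of the start sites of the 2 genes that led to this set, and of L1cam, the 1 member with a positive fold change. They were cut by different rules, so the Chl1 piece is not comparable with the others. The Chl1 piece was cut around a match and lies inside the annotated span of the gene. The Lgi2 and L1cam stretches are the parts of their windows outside annotated exons. They are RefSeq sequences of build GRCm38.p6, written 5′ to 3′ on the strand of the gene. For Chl1, the 30 bases at chr6:103510719-103510748 (plus strand) lie in an annotated exon that starts further upstream, and the capitals mark the only match found. For Lgi2, the 94 bases at chr5:52566463-52566556 (minus strand), and for L1cam, the 246 bases at chrX:73880839-73881084 (minus strand), lie outside annotated exons.
Chl1: gcaaagttttctCTTTGTccctcgcttttc
Lgi2: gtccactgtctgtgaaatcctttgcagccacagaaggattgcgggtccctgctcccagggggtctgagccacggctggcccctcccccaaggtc
L1cam: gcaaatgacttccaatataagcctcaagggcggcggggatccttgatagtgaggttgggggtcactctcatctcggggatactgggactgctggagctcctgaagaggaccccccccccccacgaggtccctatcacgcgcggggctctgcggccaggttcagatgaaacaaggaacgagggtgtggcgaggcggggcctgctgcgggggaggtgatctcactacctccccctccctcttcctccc

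Windows of 250 bases before a start site were available for 8 of the 9 genes, 10 windows in all, and were searched on both strands for TATAAA, the AP-1 letters TGACTCA and TGAGTCA (which are each other's reverse complement), the SOX letters ACAAAG and the E-box letters CAGCTG. A single window held a match. It was ACAAAG on the reverse strand of the Chl1 window, printed as CTTTGT, from 145 to 140 bases before the start site. These letters are common, since 16.5% of 32851 windows of the same length hold ACAAAG on either strand, against 12.4% for TATAAA, 4.46% for the AP-1 letters and 13.0% for CAGCTG. The Lgi2 stretch had a GC content of 63.8% and the L1cam stretch 63.0%, with 2 and 12 CG pairs.

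Chl1, Lgi2, Lgi4, Nfasc, Adam22 and Adam23 each had 3 DSS+BV values that all lay under the 3 DSS values. Chl1 and Lgi2 lay about 4 times lower, and the other 4 genes between 1.72 and 2.63 times lower. Nrcam and Lgi1 overlapped between the groups at low levels, and L1cam overlapped at a high level, with the higher mean in the DSS+BV group. Such a gap, with DSS+BV below, was found for 6 of the 9 members and for 11.3% of all tested genes, and in the higher direction for 0 of 9 and for 6.37%. Leaving out Chl1 and Lgi2, it held for 4 of 7. The median log2 fold change of these 7 was -0.82, beside -0.01 over all tested genes. These 7 were also chosen with earlier results of these data known, so the comparison with all genes is a description.

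**Figure D1:**
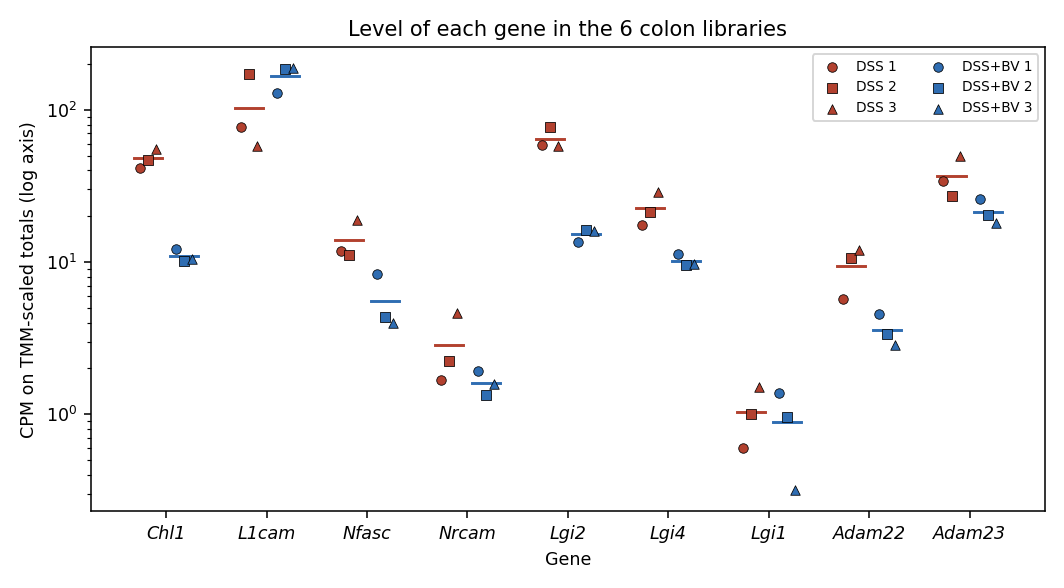
CPM of the 9 genes (log axis) in each of the 6 colon libraries, DSS in red and DSS+BV in blue, with a symbol for each replicate number and a line at each group mean. Chl1 and Lgi2 show the widest gap between the groups, with 41.7 CPM or more in the DSS libraries and 16.1 CPM or less in the DSS+BV libraries.

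Chl1 (Entrez gene 12661, chr6:103510584-103733038) encodes close homologue of L1, an adhesion molecule of neurons and glia that takes part in axon guidance and neurite growth. It was at 41.7, 46.8 and 55.2 CPM across the DSS libraries, against 12.1, 10.1 and 10.4 CPM across the DSS+BV libraries. The lowest DSS value was 3.44 times the highest DSS+BV value, and the coefficient of variation was 14.2% with DSS and 9.93% with DSS+BV. These levels rested on 697 to 948 expected counts per DSS library and 159 to 184 per DSS+BV library. Its log2 fold change was -2.14 (standard error 0.17). With 1 library left out in turn it ran from -2.23 (without DSS 1) to -2.02 (without DSS 3), and Chl1 was no longer called in any of these 6 fits.

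L1cam (Entrez gene 16728, chrX:73853778-73880838), the founding member of the family and a guide of growing axons, was the only member with a higher mean in the DSS+BV group. It was at 77.0, 172 and 57.9 CPM across the DSS libraries, against 129, 185 and 187 CPM across the DSS+BV libraries. DSS 2 lay above DSS+BV 1, so the groups overlapped, and the spread in the DSS group was 59.6% of its mean. The 3 highest libraries were DSS 2, DSS+BV 2 and DSS+BV 3, those that cluster together over all genes. The log2 fold change was 0.71 (edgeR adjusted p = 0.518, standard error 0.41), and 1.33 without DSS 2 against 0.43 without DSS 3. L1cam shares 100 exon bases, 1.36% of its exons, with Arhgap4 on the same strand.

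Nfasc (Entrez gene 269116, chr1:132564690-132741848) encodes neurofascin, which anchors nodes of Ranvier and axon initial segments. Its level was 11.9, 11.1 and 19.0 CPM across the DSS libraries, against 8.31, 4.33 and 3.98 CPM across the DSS+BV libraries. The groups did not overlap, with DSS 3 the highest DSS library and DSS+BV 1 the highest DSS+BV library. Its log2 fold change was -1.34 (edgeR adjusted p = 0.313, standard error 0.38). It ran from -1.74 without DSS+BV 1 to -1.05 without DSS 3.

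Nrcam (Entrez gene 319504, chr12:44328786-44605194), a partner of neurofascin at nodes, was scarce, with 21 to 79 expected counts per library. It was at 1.68, 2.24 and 4.60 CPM across the DSS libraries, against 1.91, 1.34 and 1.58 CPM across the DSS+BV libraries. The groups overlapped and DSS 3 stood above the other 5 libraries. The log2 fold change of -0.82 (edgeR adjusted p = 0.501, standard error 0.45) became -0.28 without DSS 3.

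Lgi2 (Entrez gene 246316, chr5:52533517-52566306) encodes a secreted LGI protein expressed in the nervous system, and had the highest mean level of the ligands. It was at 58.6, 77.7 and 57.9 CPM across the DSS libraries, against 13.5, 16.1 and 16.1 CPM across the DSS+BV libraries. The lowest DSS library was 3.59 times the highest DSS+BV library, and each group was narrow, with coefficients of variation of 17.3% and 9.99%. Between 979 and 1250 expected counts lay behind each DSS value and between 204 and 254 behind each DSS+BV value. The log2 fold change was -2.09 (standard error 0.18). It ran from -2.16 (without DSS 3) to -1.92 (without DSS 2) with 1 library left out, and Lgi2 was no longer called in any of these 6 fits.

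Lgi4 (Entrez gene 243914, chr7:31058909-31070935) encodes the ligand that Schwann cells secrete and need for myelination, and it is also known from enteric glia. It was at 17.5, 21.3 and 29.1 CPM across the DSS libraries, against 11.3, 9.49 and 9.74 CPM across the DSS+BV libraries. All DSS+BV libraries lay below all DSS libraries. Its log2 fold change was -1.15 (edgeR adjusted p = 0.200, standard error 0.23), and -0.93 without DSS 3. On the opposite strand Lgi4 shares 2059 exon bases, 44.9% of its exons, with the epithelial gene Fxyd3. The sources used here do not say whether counting used strand, and without strand the reads of this stretch could come from either gene. Fxyd3 was at 28.9, 37.1 and 20.2 CPM across the DSS libraries, against 35.1, 39.6 and 43.0 CPM across the DSS+BV libraries, with a log2 fold change of 0.45 (edgeR adjusted p = 0.485, standard error 0.24). The Fxyd3 groups overlapped, and how far shared reads enter the level of Lgi4 or of Fxyd3 was not tested.

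Lgi1 (Entrez gene 56839, chr19:38264687-38308939), the ligand whose loss causes epilepsy, had the lowest counts of the members, with 10, 16 and 26 expected counts across the DSS libraries, against 21, 15 and 5 across the DSS+BV libraries. The lowest of these, 5 in DSS+BV 3, has an exact 95% Poisson interval of 1.62 to 11.7, and the highest, 26 in DSS 3, one of 17.0 to 38.1, both for counting error only. The groups overlapped. The log2 fold change was -0.23 (edgeR adjusted p = 0.900, standard error 0.61). It changed sign to 0.15 without DSS 3 and to 0.18 without DSS+BV 3. The coefficient of variation was 44.3% with DSS and 60.7% with DSS+BV.

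Adam22 (Entrez gene 11496, chr5:8072347-8368312) encodes a receptor of LGI proteins at synapses and on peripheral axons. It was at 5.69, 10.6 and 12.1 CPM across the DSS libraries, against 4.55, 3.38 and 2.85 CPM across the DSS+BV libraries. The groups did not overlap, although DSS 1 was 1.25 times DSS+BV 1. Its log2 fold change was -1.39 (edgeR adjusted p = 0.283, standard error 0.36).

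Adam23 (Entrez gene 23792, chr1:63445717-63596111), a further LGI receptor, was the more abundant of both. It was at 34.1, 27.0 and 49.4 CPM across the DSS libraries, against 26.1, 20.3 and 18.1 CPM across the DSS+BV libraries. DSS 2, the lowest DSS library, was only 1.04 times DSS+BV 1, so the separation is a narrow one. The log2 fold change was -0.78 (edgeR adjusted p = 0.349, standard error 0.26) and -0.51 without DSS 3.

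**Figure D2:**
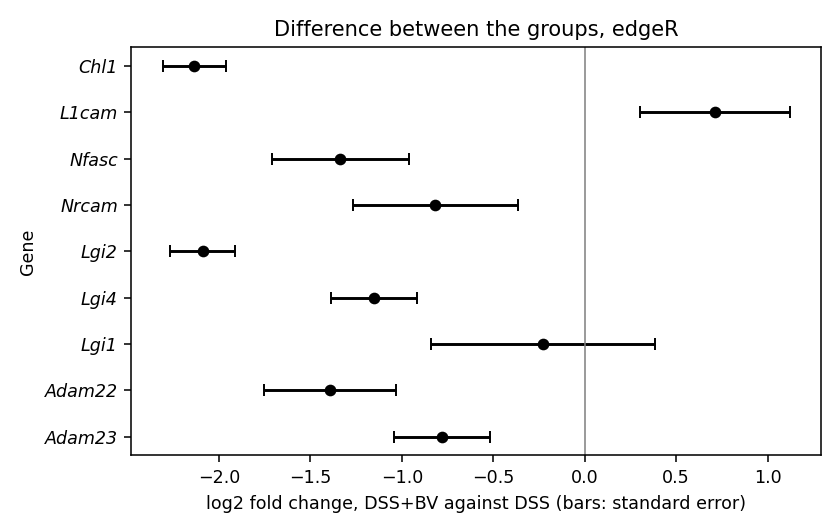
Log2 fold change of the 9 genes, DSS+BV against DSS (horizontal axis), from edgeR with its standard error. All points but that of L1cam lie left of 0, with Chl1 at -2.14 and Lgi2 at -2.09, and L1cam lies right of it at 0.71.

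By edgeR, 2 of the 9 members were called, Chl1 and Lgi2, both lower, where 0.0892% of all tested genes were called lower. These 2 are the genes that the set was built on, so nothing is read from this count. No member was called higher, and neither was any of the tested genes (0%), although 496 genes (3.4%) were higher at an unadjusted p-value under 0.05 and DESeq2 called 45 (0.279% of its 16155 tested genes). Of the other 7 members, 4 were lower at an unadjusted p-value under 0.05 in edgeR's test (Lgi4, Adam22, Nfasc and Adam23), as were 1329 of all tested genes (9.12%), and 0 of the 7 were called. DESeq2, the tool of the study, called 3 of these 7, Lgi4 (adjusted p = 0.00331), Adam22 (adjusted p = 0.0277) and Nfasc (adjusted p = 0.0465), where it called 1.73% of its tested genes lower. Adam23 (adjusted p = 0.186), Nrcam (adjusted p = 0.547), L1cam (adjusted p = 0.459) and Lgi1 (adjusted p = 0.946) did not pass in DESeq2 either. Since the 7 were chosen with earlier results of these data known, their counts beside those of all genes are descriptions.

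Levels of different genes were compared per kb of exon, from the union of annotated exons. In the DSS group the order was L1cam at 13.9 ± 8.28, Lgi2 at 9.92 ± 1.72, Lgi4 at 4.93 ± 1.29, Chl1 at 3.90 ± 0.554, Adam23 at 2.06 ± 0.640, Nfasc at 0.989 ± 0.307, Adam22 at 0.658 ± 0.232, Nrcam at 0.212 ± 0.116 and Lgi1 at 0.0912 ± 0.0404 CPM per kb (SD, n = 3 each). Between neighbours in this order, the ranges of L1cam and Lgi2, Lgi4 and Chl1, Nfasc and Adam22, and Nrcam and Lgi1 overlapped. In the DSS+BV group the order was L1cam at 22.8 ± 4.46, Lgi2 at 2.33 ± 0.233, Lgi4 at 2.22 ± 0.211, Adam23 at 1.199 ± 0.230, Chl1 at 0.887 ± 0.0880, Nfasc at 0.392 ± 0.170, Adam22 at 0.250 ± 0.0608, Nrcam at 0.121 ± 0.0216 and Lgi1 at 0.0780 ± 0.0474 CPM per kb (SD, n = 3 each). There the ranges of Lgi2 and Lgi4 overlapped, as did Nfasc and Adam22, and Nrcam and Lgi1. L1cam stood apart from Lgi2, and Adam23 from Chl1. The place of Lgi4 in both orders carries the limit of the exons that it shares with Fxyd3.

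**Figure D3:**
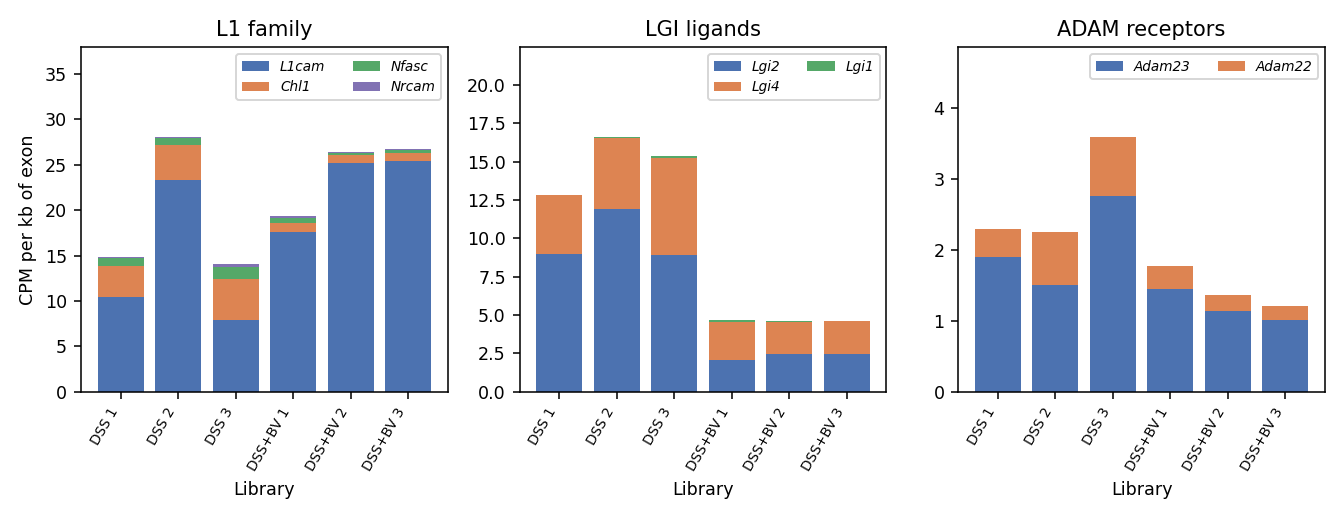
CPM per kb of exon in each of the 6 libraries, stacked by gene for the L1 family, the LGI ligands and the ADAM receptors, each with its own axis from 0. The summed LGI level is 12.9 to 16.6 in the DSS libraries and 4.61 to 4.64 in the DSS+BV libraries, while L1cam makes up most of the L1 family in every library.

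Within the L1 family, Chl1 made up 22.9%, 13.5% and 31.9% of the summed level per kb across the DSS libraries, against 5.11%, 3.12% and 3.18% across the DSS+BV libraries. The ratio of L1cam to Chl1 per kb was 3.09, 6.14 and 1.76 in the DSS libraries and 17.8, 30.61 and 30.01 in the DSS+BV libraries. Both measures lay apart between the groups, which largely follows from the choice of Chl1 on this contrast.

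The summed level of the LGI ligands was 12.9, 16.6 and 15.4 CPM per kb across the DSS libraries, against 4.64, 4.62 and 4.61 CPM per kb across the DSS+BV libraries. Lgi2 held 69.9%, 71.6% and 57.8% of it in the DSS libraries and 44.4%, 53.4% and 53.3% in the DSS+BV libraries, with Lgi4 nearly all of the rest. Since Lgi4 shares 44.9% of its exons with Fxyd3 and the use of strand is not given, the sum and the shares carry that limit. Set against the receptor Adam23, Lgi2 was at 4.72, 7.88 and 3.22 times its level per kb across the DSS libraries, against 1.42, 2.18 and 2.44 times across the DSS+BV libraries. By contrast, the ratio of Lgi2 to Chl1 per kb was 2.645, 3.13 and 1.976 across the DSS libraries, against 2.088, 2.996 and 2.899 across the DSS+BV libraries, and overlapped. Lgi2 and Chl1 were chosen on this contrast, so these sums, shares and ratios are descriptions that largely restate that choice.

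Over the 6 libraries, the log2 levels of Chl1 and Lgi2 had a Pearson correlation of 0.971, Chl1 and Lgi4 one of 0.967, and Lgi4 and Adam22 one of 0.965. L1cam ran against the others, from -0.938 with Adam23 to -0.386 with Lgi1. The libraries share the contrast on which Chl1 and Lgi2 were chosen, so these values are descriptions. Lgi2 ranked 83rd and Lgi4 102nd of 14578 genes by correlation with Chl1, and Chl1 ranked 28th by correlation with Lgi2.

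The 5 genes most like Chl1 over the 6 libraries were Nfe2 (0.995), Col4a2 (0.995), Timp1 (0.995), Csf3 (0.995) and Mmp9 (0.994). Nfe2 and Csf3 were scarce, Nfe2 at means of 1.12 CPM with DSS and 0.257 CPM with DSS+BV, and Csf3 at 4.01 and 0.216 CPM. Col4a2, a basement membrane collagen chain, was at 344.2, 334.3 and 383.2 CPM across the DSS libraries, against 146.7, 113.7 and 127.5 CPM across the DSS+BV libraries. The 5 most like Lgi2 were Cir1 (0.999), Mmp9 (0.989), Eda (0.989), Nfe2 (0.986) and Mindy4 (0.986). Mmp9, a gelatinase, stood in both lists, at 11.4, 13.2 and 12.4 CPM across the DSS libraries, against 1.91, 1.72 and 1.77 CPM across the DSS+BV libraries. By edgeR, Col4a2, Timp1 and Mmp9 were themselves called lower, and Nfe2, Csf3, Cir1, Eda and Mindy4 were not called. The libraries share the contrast on which Chl1 and Lgi2 were chosen, so genes with a clear gap between the groups rank high. Both lists are therefore descriptions.

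Of 20 genes for partners, sheddases and cytoskeletal links of the L1 family, 18 were tested. By edgeR 0 were called in either direction, and 13 were below 0 and 5 above, beside 51.5% of all tested genes below 0. The median log2 fold change was -0.16, beside -0.01 over all tested genes. The largest were Ank2, an ankyrin that ties L1 proteins to spectrin, at -1.45 (edgeR adjusted p = 0.313, standard error 0.40), and Cntn1, a contactin that binds Nrcam and neurofascin, also at -1.45 (edgeR adjusted p = 0.343, standard error 0.47). Ank2 was at 11.1, 18.1 and 34.0 CPM across the DSS libraries, against 8.11, 7.26 and 7.78 CPM across the DSS+BV libraries. Cntn1 overlapped, since DSS 1 was at 5.45 CPM and DSS+BV 1 at 5.61 CPM. DESeq2 called 2 genes, Ank2 (adjusted p = 0.0386) and Adam8 (also chosen after its values were seen), a metalloprotease that cleaves Chl1 (adjusted p = 0.0450). Both were lower, where DESeq2 called 1.73% of its tested genes lower.

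Of 13 other genes of the LGI receptor complex, 10 were tested, among them the relative Adam11, potassium channels, scaffolds and AMPA receptor subunits, while Lgi3, Kcna4 and Cacng2 did not pass the filter. By edgeR 0 of the 10 were called, and 9 were below 0, beside 51.5% of all tested genes. The median log2 fold change was -1.12, beside -0.01 over all tested genes. This list median was -0.62 without DSS 3 and -0.74 with a minimum count of 30. Gria1, an AMPA receptor subunit, had the largest log2 fold change at -1.74 (edgeR adjusted p = 0.343, standard error 0.57), followed by Kcnab1, a potassium channel subunit, at -1.59 (edgeR adjusted p = 0.427, standard error 0.72). Gria1 was at 0.778, 1.68 and 2.97 CPM across the DSS libraries, against 0.660, 0.382 and 0.569 CPM across the DSS+BV libraries. Kcnab1, also scarce, overlapped, at 0.539, 1.49 and 3.26 CPM across the DSS libraries, against 0.858, 0.319 and 0.569 CPM across the DSS+BV libraries. DESeq2 called Kcna2, an axonal potassium channel, alone of this list (adjusted p = 1.145e-05), where it called 1.73% of its tested genes lower. Kcna2 (picked with its values known) stood at 11.4, 15.2 and 14.7 CPM across the DSS libraries, against 5.87, 4.71 and 4.30 CPM across the DSS+BV libraries.

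All 18 enteric neuron markers were tested and were below 0, beside 51.5% of all tested genes. Their median log2 fold change was -1.81, beside -0.01 over all tested genes. By edgeR 0 were called, where 0.0892% of all tested genes were called lower. For 9 of the 18, all DSS+BV values lay below all DSS values, beside 11.3% of all tested genes. The marker lists were chosen with earlier results of these data known, so these counts are descriptions. The summed level of the neuron markers was 221 to 755 CPM with DSS and 104 to 107 CPM with DSS+BV. The most abundant by the mean over all 6 libraries were the neuropeptide genes Tac1 and Vip and the receptor Ret, although Hand2 and Nos1 had higher means than Ret with DSS. Vip was at 29.8, 31.6 and 149 CPM across the DSS libraries, against 18.7, 16.4 and 12.1 CPM across the DSS+BV libraries, and Ret at 11.9, 22.7 and 62.8 CPM against 8.311, 9.875 and 11.19 CPM. Tac1 overlapped, since DSS 2 was at 26.2 CPM and DSS+BV 1 at 28.5 CPM. DSS 3 held the highest neuronal marker sum, and of the members all but L1cam and Lgi2 had their highest value there.

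Of the 14 enteric glia markers, 11 were tested and 0 were called by edgeR, with a median log2 fold change of -0.93. Below 0 were 10 of the 11, beside 51.5% of all tested genes. For 6 of the 11, all DSS+BV values lay below all DSS values, beside 11.3% of all tested genes. The summed level was 474 to 581 CPM with DSS and 353 to 458 CPM with DSS+BV, with Erbb3, which epithelium also expresses, as its largest part at 288.4 to 394.5 CPM with DSS and 198 to 333 CPM with DSS+BV. Of the others of highest level, Cnp overlapped between the groups, and Gpm6b was at 45.9, 42.6 and 76.2 CPM across the DSS libraries, against 28.0, 19.4 and 18.7 CPM across the DSS+BV libraries. Among other glial genes, picked with their values known, Gfap (-1.55) and Sox10 (-1.04) did not overlap between the groups, while S100b (-0.47) and Entpd2 (0.04) did, on the log2 fold change scale.

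The summed level of 8 fibroblast markers was 3740 to 4096 CPM with DSS and 1330 to 1966 CPM with DSS+BV, with a median log2 fold change of -1.03. That of 7 epithelial markers was 8770 to 9989 CPM and 11290 to 15020 CPM, with a median of 0.48. The 8 smooth muscle markers overlapped, at 3326 to 4099 CPM and 2421 to 3986 CPM, with a median of -0.17. The 6 endothelial markers lay at 334 to 457 CPM and 235 to 307 CPM, while macrophage (357 to 774 and 213 to 481 CPM), neutrophil (202 to 1014 and 29.4 to 324 CPM, of which Ly6g was the largest part) and interstitial cell of Cajal markers (107 to 185 and 163 to 225 CPM) overlapped in their sums. Gene by gene, 6 of the 7 neutrophil markers lay lower in all DSS+BV libraries than in all DSS libraries, beside 11.3% of all tested genes. S100a8 was at 30.4 to 46.35 CPM with DSS and 1.465 to 2.086 CPM with DSS+BV, and Ly6g alone of the neutrophil markers overlapped. By the same measure, 5 of 8 fibroblast, 2 of 6 endothelial and 1 of 6 macrophage markers lay lower. None of the smooth muscle or interstitial cell of Cajal markers did. Of the 7 epithelial markers, 4 lay higher in all DSS+BV libraries, beside 6.37% of all tested genes. The medians of the endothelial, macrophage, neutrophil and interstitial cell of Cajal lists were -0.53, -0.88, -3.61 and 0.30. Of all marker lists, the neutrophil list alone held genes called by edgeR, 5 of 7, all lower, where 0.0892% of all tested genes were called lower.

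The levels of Chl1 and Lgi2 were then set against the mean log2 level of 5 of the marker lists in the same library (enteric glia, enteric neuron, fibroblast, smooth muscle and epithelium). Both genes were chosen on the contrast of the groups, so staying apart against a list that changed less largely follows from that choice. Against enteric glia markers, Chl1 was at 1.82, 1.61 and 1.34 across the DSS libraries, against 0.32, 0.23 and 0.23 across the DSS+BV libraries, on the log2 scale, so the groups stayed apart. Against fibroblast markers it was at -2.33, -2.17 and -2.05 in the DSS libraries and at -3.48, -3.15 and -3.16 in the DSS+BV libraries. Against enteric neuron markers the groups overlapped, at 2.83, 2.06 and 1.07 across the DSS libraries, against 1.74, 1.31 and 1.12 across the DSS+BV libraries. DSS 3, the library with the highest neuronal marker sum, held the lowest of these values.

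Lgi2 also stayed apart against glia and fibroblasts. Against enteric glia markers it was at 2.31, 2.34 and 1.41 in the DSS libraries and at 0.47, 0.892 and 0.845 in the DSS+BV libraries, and against fibroblast markers at -1.84, -1.44 and -1.98 and at -3.33, -2.49 and -2.55. Against enteric neuron markers it was at 3.32, 2.79 and 1.14 and at 1.89, 1.97 and 1.74, which overlapped. Lgi4 was, against the glial markers, at 0.57, 0.48 and 0.42 in the DSS libraries and at 0.22, 0.14 and 0.13 in the DSS+BV libraries, a mean difference of -0.33 where that of Chl1 was -1.33 and that of Lgi2 -1.28. Against fibroblast markers Lgi4 overlapped between the groups, with means of -3.28 and -3.36. That Chl1 and Lgi2 differed more than Lgi4 largely follows from the choice of Chl1 and Lgi2 on this contrast. How far cell composition enters the difference in any member was not tested.

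**Figure D4:**
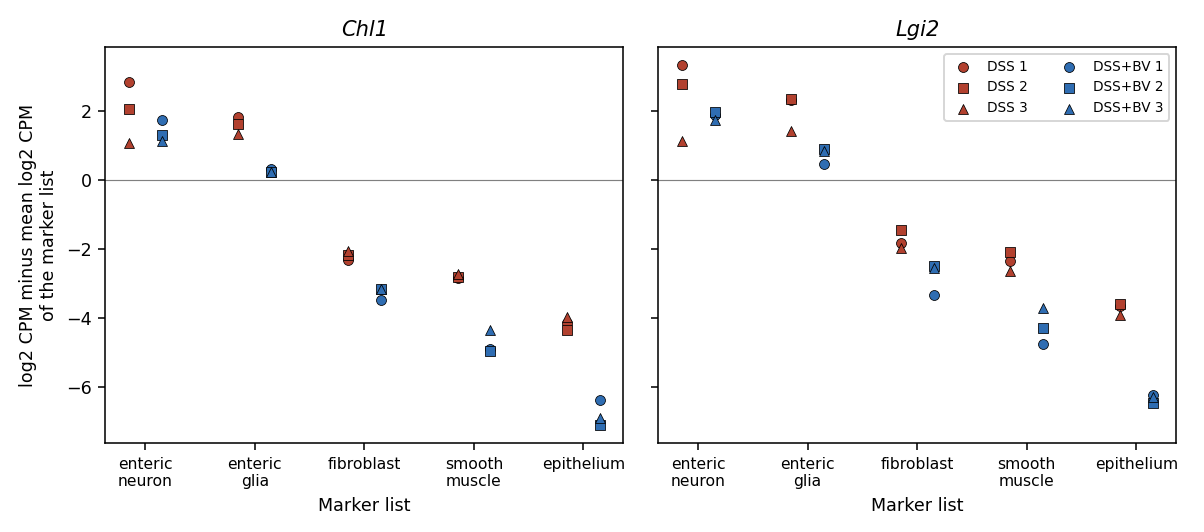
Log2 CPM of Chl1 (left) and Lgi2 (right) minus the mean log2 CPM of each of 5 marker lists, in the 6 libraries, DSS in red and DSS+BV in blue. The groups overlap for the enteric neuron list and lie apart for the enteric glia, fibroblast, smooth muscle and epithelium lists. Both genes were chosen on the contrast of these groups.

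As correlations over the 6 libraries, Chl1 followed the summed fibroblast markers at 0.970, the enteric neuron markers at 0.898, the endothelial markers at 0.869 and the enteric glia markers at 0.841, and Lgi2 at 0.932, 0.811, 0.730 and 0.873. Erbb3, which epithelium also expresses, was the largest part of the enteric glia sum. Without Erbb3, a setting chosen after seeing the data, the correlation with the glia sum was 0.891 for Chl1 and 0.76 for Lgi2. Lgi4 followed the same 4 sums, Erbb3 included, at 0.909, 0.970, 0.942 and 0.844. L1cam ran against macrophage markers at -0.933 and had 0.519 with epithelial markers. These 6 points share library, depth and the contrast of the 2 groups.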

How the data were processed

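Colon RNA was sequenced in 6 libraries. RSEM expected counts per gene, unscaled between libraries, are what the authors deposited. The submitters' processing notes name HISAT2 2.1.0, Bowtie2 2.2.5, RSEM 1.2.8 and GRCm38.p6. Whether counting used strand is not given in the sources used here. Samples were grouped by their titles. The members and gene lists were chosen with earlier results of these data known.

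Expected counts were rounded (all 9 members held whole counts), filtered with filterByExpr (minimum count 10, minimum total 15), TMM-scaled, and tested in edgeR 4.0.16 (glmQLFit and glmQLFTest; R 4.3.3), adjusting p-values over 14579 genes by Benjamini-Hochberg. Standard errors are the log2 fold change divided by the root of the F statistic. Log2 CPM used a prior count of 2. Exon lengths came from GENCODE M21, gene positions and upstream windows from RefSeq, both on GRCm38. Named genes were the members, the 2 genes of largest absolute log2 fold change per partner list, the 5 genes most correlated with Chl1 or Lgi2, and the 3 most abundant glial and neuronal markers. Others were chosen after their values were seen.

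Alternatives were DESeq2 1.42.0, other scaling factors and filters, a robust fit, the replicate number as a block, and each library left out. The edgeR step was tested on simulated data. Protein sequences were not used here. Figures were drawn with matplotlib 3.10.9.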

Additional observations from a re-analysis of the deposited data

How the results depend on the processing

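The alternatives were RLE and upper-quartile factors, no filter, a minimum count of 30, a robust fit, DESeq2, the replicate block and each library left out in turn. The scaling factors moved the median of all genes by 0.01 (RLE) and -0.05 (upper-quartile). DESeq2 called 280 genes lower and 45 higher, where edgeR called 13 and 0, and added Nfasc (-1.32), Lgi4 (-1.13), Adam22 (-1.38), 2 L1 family partners and 1 gene of the LGI receptor list. With the replicate block edgeR called 0 genes lower, and neither Chl1 (-2.13) nor Lgi2 (-2.08) was called. The deviations of same-numbered libraries correlated at 0.267, 0.255 and -0.296, so the numbers are not shown to pair the libraries, and DSS 2 and DSS 3 correlated best with libraries of other numbers. With 1 library left out, edgeR called 0 to 3 genes lower and 0 to 4 higher (both highest without DSS+BV 1), Chl1 ran from -2.23 to -2.02 and Lgi2 from -2.16 to -1.92 without a call, and Lgi1 ran from -0.69 to 0.18, with 0.15 without DSS 3 and 0.18 without DSS+BV 3. The median ran from -0.32 (without DSS+BV 1) to -0.10 (without DSS 3) for the L1 family partners and from -1.40 to -0.62 (the same libraries) for the LGI receptor list. In the alternatives that kept every library, the LGI receptor median ran from -1.17 (upper-quartile factors) to -0.74 (minimum count of 30). The fits other than DESeq2, the block and the left-out libraries changed no call of a member. The correlation of Lgi2 with the enteric glia markers was 0.87, 0.77 as Spearman's rho and 0.76 without Erbb3, and that of L1cam was -0.40 and -0.87 without Erbb3, a setting chosen after seeing the data. The cause of these changes was not tested. Lgi1 rested on 5 to 26 counts per library.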
